A study of Mus musculus with 2 samples.

Results

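The cells described here were the globin-rich barcodes of the mouse aorta-gonad-mesonephros (AGM) region at embryonic day 11 (E11), 982 of 16418 barcodes that held 2000 or more unique molecular identifiers (UMIs, counts of single captured transcripts) and under 10% UMIs of mitochondrial genes. They were selected on the summed UMIs of 7 globin genes (Hbb-y, Hbb-bh1, Hba-x, Hba-a1, Hba-a2, Hbb-bt and Hbb-bs), which had to make up 10% or more of all UMIs of a barcode. Globin values therefore chose the members, and every globin value below is a description of that choice. The AGM is the region around the dorsal aorta that forms the first definitive blood stem cells, and it was dissociated with collagenase and run unsorted on the 10x Chromium platform with a target of 7000 cells. One library came from PDGFRB +/+ (WT) embryos and 1 from PDGFRB -/- (KO) embryos, which lack the PDGF receptor beta, and both were E11 AGM. The mutant allele was carried by heterozygous C57BL/6J mice. Whether the AGMs of several embryos were pooled is not given in the sources used here. The libraries held 179743201 UMIs in WT and 174597654 in KO. With 1 library per genotype there is no replicate, no test between genotypes was made, and all intervals below are exact 95% intervals that cover counting error only. Genotype, embryo, dissection, library and, by the sex-linked genes given below, sex cannot be told apart in any comparison of WT with KO.

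Primitive erythroid cells are the first red blood cells of the embryo. They arise in the yolk sac, enter the circulation while they still carry a nucleus, and mature there as a cohort, filling with hemoglobin, leaving the cell cycle and clearing organelles. In the mouse they are known for a switch within each globin family, from Hbb-bh1 to Hbb-y among the embryonic beta-like genes and from Hba-x (zeta) to Hba-a1 and Hba-a2 (adult alpha) among the alpha-like genes. Definitive red cells from the fetal liver instead use the adult beta genes Hbb-bs and Hbb-bt.

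The erythroid program is driven by GATA1, which binds the letters AGATAA and close variants, and by KLF1, which binds CACCC boxes. Both motifs were searched on both strands in the 200 bases before the RefSeq start of each gene that led the members over the other barcodes (GRCm38.p6). Of those 10 genes, 6 had a promoter in the table, of which 3 held AGATAA and 4 held CACCC, against 7.8% and 45.5% of all 32851 promoters. The same search covered the 10 genes that rose most with globin share over all members. Of their 8 promoters 1 held AGATAA (12.5%) and 4 held CACCC (50%). For Alas2, Hemgn, Gm14275 and, by a few bases, Aqp8 the RefSeq start lay inside the gene span of the annotation used for positions below, so for these genes the window searched does not end at the start of that span. A match is a description and not a site. Rhd, a Rhesus blood group membrane protein, and Hsd3b6, a steroid dehydrogenase, were near absent outside the members. Neither was among the genes above whose starts differed. Their windows (chr4:134864336-134864535, plus strand, and chr3:98814444-98814643, minus strand) held both motifs and are shown. They are written 5′ to 3′ with the matches of either strand in capitals.
Rhd: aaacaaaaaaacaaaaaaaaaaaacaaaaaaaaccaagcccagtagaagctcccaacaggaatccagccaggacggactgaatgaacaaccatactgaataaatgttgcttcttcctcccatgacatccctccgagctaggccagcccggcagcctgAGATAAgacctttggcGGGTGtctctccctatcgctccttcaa
Hsd3b6: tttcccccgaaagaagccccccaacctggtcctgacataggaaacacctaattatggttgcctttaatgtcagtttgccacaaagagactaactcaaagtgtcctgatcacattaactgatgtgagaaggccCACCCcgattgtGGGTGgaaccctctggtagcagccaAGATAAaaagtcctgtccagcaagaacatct
The AGATAA of Rhd began 43 bases before the start, and that of Hsd3b6 31 bases before it.

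Of 8253 WT barcodes 761 were members, or 9.22% (8.61 to 9.87, exact binomial), and of 8165 KO barcodes 221 were members, or 2.71% (2.37 to 3.08). The log2 ratio of the KO to the WT share was -1.77 (-1.99 to -1.55). The amount of blood kept at dissection was not measured, and its part in this share was not tested. Empty droplets, taken as barcodes with at most 100 UMIs, held 4.08% globin UMIs in WT and 2.10% in KO.

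The limit of 10% fell in a sparse stretch of the distribution. The WT barcode nearest below it had 7.37% globins and the nearest above had 10.1%, and in KO these were 8.82% and 13.5%. Only 5 barcodes of each library lay between 5% and 10%, while 7484 of the 7492 other WT barcodes and 7933 of the 7944 other KO barcodes held under 1% globins. No barcode sequence was a member in both libraries, and 20 passed the limits in both, among them 2 WT members.

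**Figure D1:**
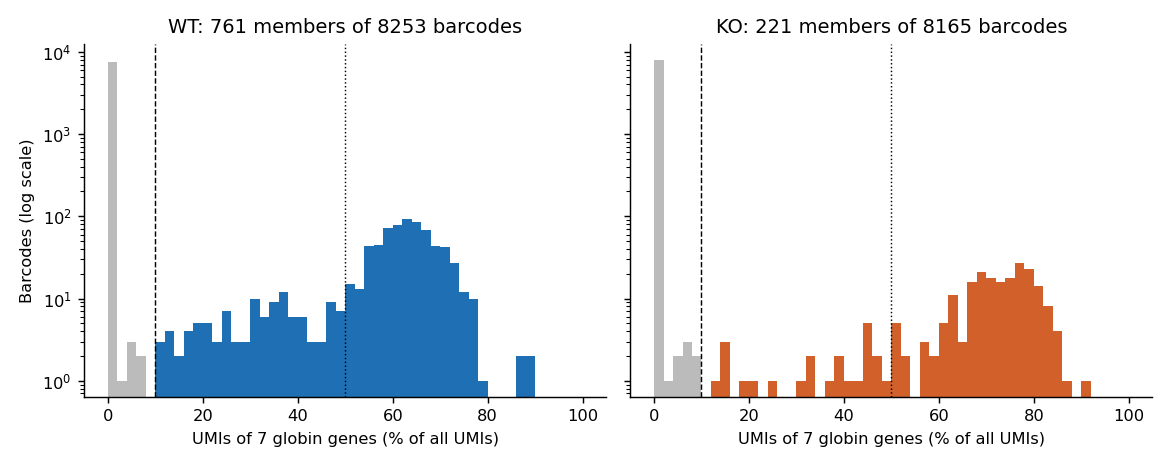
Number of barcodes (log scale) by the share of their UMIs that came from the 7 globin genes, for WT and KO, with members in colour, the limit of 10% as a dashed line and 50% as a dotted line. In both libraries the barcodes form a large group under 1% and a second group above 50%, with 110 WT and 23 KO members between the limits.

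The members held 14287350 UMIs in WT and 4746997 in KO, of which 6439567 and 1691257 were not from globins. A member had a median of 16784 UMIs in WT and 19738 in KO, of which 6128 and 4876 were not globin, and a median of 1617 and 1271 genes. Globins made up a median of 62.1% of the UMIs of a WT member and 72.0% of a KO member. Because of this gap, gene levels below are UMIs per 1000000 non-globin UMIs (CPM), summed over cells.

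The label was checked with 2 genes that the rule did not use. Klf1, an erythroid transcription factor, had a UMI in 79.8% of WT and 63.3% of KO members, against 1.19% and 1.61% of the other barcodes, which were deeper in non-globin UMIs (median 12690 and 12199). Hemgn, an erythroid nuclear protein, had a UMI in 91.1% of WT and 57.5% of KO members, against 0.881% and 0.239% of the others. After thinning each barcode to 2000 non-globin UMIs, which left out 26 WT and 8 KO members, Hemgn was seen in 81.0% and 46.0% of members and in 0.107% and 0.0252% of the others. At equal depth Hemgn was thus far more frequent in members. Kit, the stem cell factor receptor, had a UMI in 2.37% of WT and 3.17% of KO members against 19.6% and 12.5% of the others. Myb had a UMI in 0.657% and 0.452% against 5.71% and 5.14%. Not every progenitor marker was lower over all members. Cd34 was at 30.3 CPM in WT members against 16.4 in the others, and at 4.14 against 22.7 CPM in KO. Procr was at 4.04 against 2.56 CPM in WT and had 0 UMIs in KO members. WT members with 10 to 50% globins held 190 of these Cd34 UMIs, 74 of them in 1 member, and all 26 of Procr. WT members with 50% or more globins and embryonic beta-like globins held 5 UMIs of Cd34 (1.23 CPM) and 0 of Procr. Of members with 10 to 50% globins, 25 of 110 in WT and 6 of 23 in KO held 3 or more UMIs of a list of 11 such markers. The 12 genes of a list of progenitor and definitive transcription factors summed to 29.1 CPM in WT and 38.3 in KO members with 50% or more globins, and to 446 and 483 CPM in the other barcodes.

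The members were not of one kind. Those with 10 to 50% globins, 110 in WT and 23 in KO, are called intermediate members here. They held a median of 27967 UMIs in WT and 28916 in KO, and 4256 and 4091 genes, against 1519 and 1211 genes in members with 50% or more globins. In WT 87 of 110, and in KO 20 of 23, held more genes than 99% of the members with 50% or more globins of the same library. Mesenchyme markers, a list of 15 genes led by Sparc in WT and Col1a2 in KO, summed to 3128 CPM in WT and 2727 in KO intermediate members, close to the 3796 and 2698 CPM of the other barcodes and far above the 159 and 116 CPM of members with 50% or more globins, and none of the 15 genes was at 0. Of the intermediate members 86 of 110 and 20 of 23 held 3 or more mesenchyme UMIs. Such barcodes carry the transcripts of stromal cells and of erythroid cells together. No doublet caller was run, and the part of doublets in this group was not tested.

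Endothelial markers showed how few barcodes can set a sum. The 12 genes reached 984 CPM in WT intermediate members and 37.1 CPM in KO, led by Ramp2 and Egfl7. In WT 6 barcodes held 20 or more of these UMIs and 1 barcode held 589 of all 2315. In KO Emcn, Cldn5, Tek, Flt1, Tie1 and Eng were at 0 in these cells. Macrophage markers were nearly absent from all members, with 8.85 CPM in WT and 4.73 in KO against 345 and 281 CPM in the other barcodes, and Cx3cr1 was at 0 in the members of both libraries. Liver cell markers were nearly absent too, with 2.95 and 2.37 CPM and with Alb, Apob and Ttr at 0 in both.

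The comparisons that follow are given for all members, as the rule defines them, and for the 643 WT and 196 KO members with 50% or more globins whose beta-like globins were embryonic, called globin-rich members. This second group was chosen after the data were seen, and it held 4075308 and 1061299 non-globin UMIs.

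A small set of members carried adult beta globin alone. In 10 WT and 2 KO members Hbb-bs and Hbb-bt made up 99.4% or more of the beta-like UMIs, while in every other member they made up at most 20.4% in WT and 21.9% in KO, so no cell lay between. These cells also used almost only adult alpha genes, with a lowest value of 88.1%. Of them 7 in WT and 1 in KO were poor in RNA, with 200 to 730 genes in WT and 354 in KO. These 8 cells held no UMI of Hemgn or Klf1, although Alas2, the first enzyme of heme synthesis in red cells, was at 12100 CPM in WT and 18987 in KO. The other 3 WT cells and 1 KO cell were deeper, with 53 and 21 Hemgn UMIs in all, and 1 of these WT cells also held 388 UMIs of markers of other cell types.

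Over all members the embryonic genes led the globins, and the adult alpha share was larger in KO. Hbb-y made up 59.8% of the rule's globin UMIs in WT and 56.5% in KO, and Hba-x made up 20.9% and 15.3%. Hba-a1 was at 6.82% in WT and 11.4% in KO, and Hba-a2 at 3.56% and 6.22%. Since Hba-a1 and Hba-a2 are near-identical copies, their split is uncertain and only their sum is used below. Hbb-bh1, the earliest beta-like gene, was at 2.61% in WT and 1.59% in KO.

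Per cell, with the adult-beta members left out, adult alpha made up a median of 32.6% of alpha-like UMIs in WT (quartiles 29.0 and 36.4%) and 52.5% in KO (quartiles 47.1 and 59.2%). The quartile ranges of the libraries did not overlap, although single cells did, with a highest WT value of 70.0% and a lowest KO value of 34.8%. Adult beta made up a median of 8.49% of beta-like UMIs in WT and 12.5% in KO. Hbb-bh1 made up 3.98% of the embryonic beta UMIs in WT and 2.45% in KO. Within a library these measures moved together: over 751 WT members the Spearman correlation of adult alpha with the Hbb-bh1 share was -0.47, and over 219 KO members it was -0.62. The points share their library and their cells, so the correlations are given as a description.

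The 2 switches did not keep the same step in both libraries. Globin-rich members were sorted into 6 classes by their Hbb-bh1 share, and adult alpha was higher in KO in each of them. In cells with 1.5 to 2.5% Hbb-bh1 (80 WT and 76 KO) the median adult alpha share was 36.9% in WT and 56.6% in KO. In cells with 3.5 to 4.5% (169 and 30) it was 33.0% and 48.2%. In cells with 5.5% or more (117 and 7) it was 29.1% and 39.9%, with an upper quartile of 32.4% in WT and a lower quartile of 38.8% in KO. A KO cell of the earliest class thus stood about where a WT cell of the latest class did, since the 17 WT cells with under 1.5% Hbb-bh1 had a median of 40.1%. Globin share was higher in KO in each class as well, from 59.4% against 61.5% in the earliest to 71.3% against 79.2% in the latest.

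**Figure D2:**
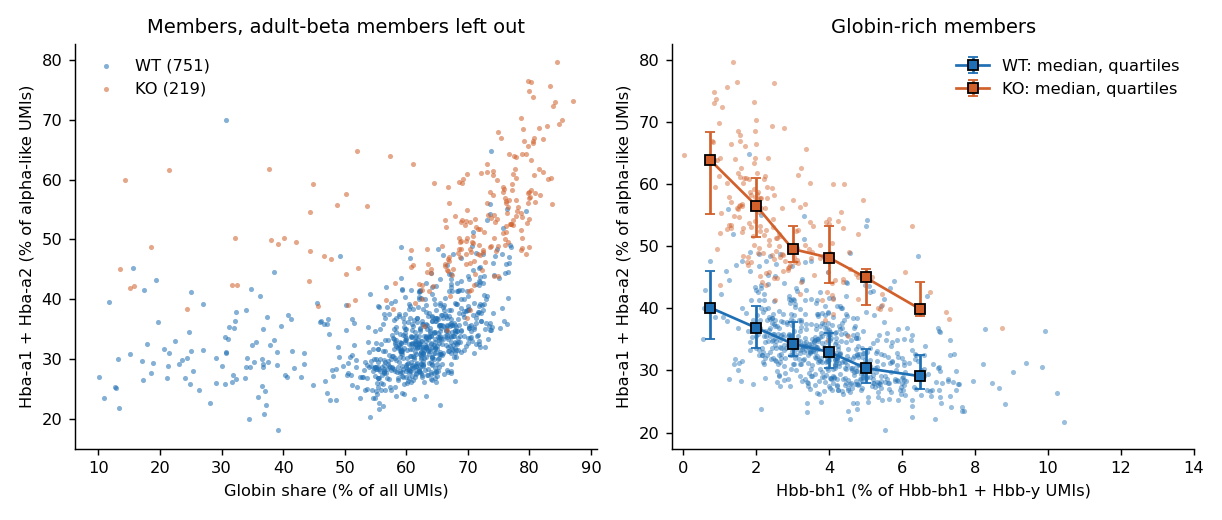
Left, adult alpha globins (Hba-a1 and Hba-a2, % of alpha-like UMIs) against globin share (% of all UMIs) in members without adult-beta members. Right, the same against the Hbb-bh1 share of embryonic beta UMIs in globin-rich members, with squares for the class median and bars for its quartiles, where the KO medians lie between 39.9 and 63.8% and the WT medians between 29.1 and 40.1%.

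Outside the globins the members were set apart by genes of heme, the red cell membrane and oxygen handling. Among 3502 genes with enough UMIs, 12.5% were 2-fold or more higher in members than in the other barcodes of both libraries and 13.2% were 2-fold or more lower, a contrast on cells chosen by their globins and so a description. The share was 14 of 15 measured genes for heme synthesis, 21 of 26 for the membrane and its skeleton, 11 of 17 for erythroid transcription factors, 11 of 16 for iron handling, 11 of 16 for chaperones and redox enzymes, and 8 of 18 for organelle clearance. Glycolysis and hypoxia genes went the other way, with 0 of 14 higher and 7 of 14 lower.

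The genes that led members over the other barcodes were ranked by the library with the smaller ratio. Alas2 (ENSMUSG00000025270, chrX:150547375-150570638, GRCm38) was at 1461 CPM in WT members and 0.884 CPM in the other WT barcodes, and at 1558 and 0.531 CPM in KO, log2 ratios of 10.69 and 11.52. Slc4a1, the band 3 anion exchanger (chr11:102348824-102366203), was at 949 and 964 CPM, with ratios of 10.06 and 10.89. Rhd was at 785 and 722 CPM, with ratios of 10.12 and 10.43. For Alas2, Slc4a1 and Rhd the log2 ratio of KO to WT members lay between -0.12 and 0.09, small beside their ratios over the rest.

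Hemgn (chr4:46393989-46413506) had the same ratio over the rest in both libraries, 10.58, but its level in members was 1218 CPM in WT and 590 in KO. Cldn13, a claudin (chr5:134914249-134915526), was at 205 and 193 CPM with ratios of 10.95 and 10.89. Aqp8, a water channel, was at 93.8 and 68.0 CPM and had 0 UMIs in the other KO barcodes. Hsd3b6 was at 484 CPM in WT and 749 in KO, with ratios of 10.42 and 11.37. The predicted genes Gm14275 and AC117197.1 were also among the 10, with smaller ratios of 11.74 and 10.49.

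The most abundant non-globin transcripts of members, in UMIs of a 3′ kit that are not scaled by gene length, were Fth1 (24806 CPM in WT and 32126 in KO), Malat1, Ftl1, Rpsa, Rps2, Rplp0, Tpt1, Rps29, Rpl41 and mt-Co3. Fth1 and Ftl1 encode the ferritin chains that store iron, and in members Fth1 was higher than in the other barcodes by a log2 of 4.37 in WT and 4.78 in KO. Among transcripts for iron entry, Slc25a37 (mitoferrin 1) was at 2223 CPM in globin-rich WT members and 2752 CPM in KO, and Tfrc, the transferrin receptor, at 210 and 265 CPM. Among enzymes that remove peroxides, Prdx2 was at 9498 CPM in WT and 10719 in KO, and Gpx1 at 9541 and 11275 CPM. Car2, the carbonic anhydrase that hydrates carbon dioxide, was at 5887 and 5469 CPM. The ratios of these 3 genes between libraries, 0.17, 0.24 and -0.11 on the log2 scale, were small.

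**Figure D3:**
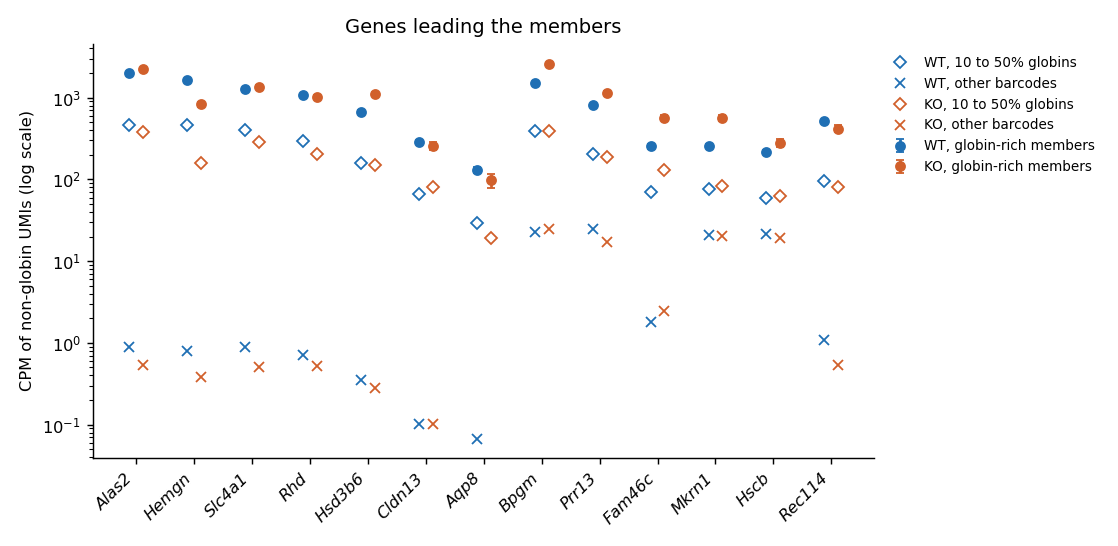
CPM of non-globin UMIs (log scale) of 13 genes that lead the members, in globin-rich members (filled, bars are exact 95% counting intervals), in members with 10 to 50% globins (open) and in the other barcodes (crosses), where a gene with 0 UMIs has no mark. Alas2 stood at 2021 CPM in WT and 2227 in KO in the first group and under 1 CPM in the other barcodes.

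Maturation was followed by the globin share itself, with members split at 61.8% and 70.6% into 3 tiers that weight both libraries equally. The WT members were most numerous in the low tier (369 low, 308 middle, 84 high) and the KO members in the high tier (40, 58 and 123). Among 2922 genes, 7.56% were 2-fold or more higher in the high than in the low tier of both libraries and 35.3% were 2-fold or more lower. The 10 genes with the steepest decline were Sparc, Gpc3, Col1a1, P4hb, Itm2a, Phldb2, Ptn, Map1b, Meis2 and Dlk1, most of them stromal genes. Members were called mixed if markers of another cell type reached 3 UMIs and 0.5% of their non-globin UMIs. The low tier held 24 of the 26 mixed members of WT and all 6 of KO. In WT Sparc was at 475 CPM in the low tier, 19.9 in the middle and 22.5 in the high tier. The order by globin share therefore also sorted barcodes by stromal content when intermediate members were kept, and the tiers of globin-rich members are given next.

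Among globin-rich members, split at 63.8% and 71.6%, cell cycle genes declined and a set of late genes climbed in both libraries (346, 238 and 59 WT cells and 25, 58 and 113 KO cells). Of 1284 genes 5.53% were 2-fold or more higher in the high tier of both libraries and 9.66% were 2-fold or more lower, while at any size 458 were higher in both and 616 were lower in both. All 25 measured genes of the G2/M list and both measured genes of the S list were 2-fold or more lower. The summed S list stood at 3134, 1175 and 450 CPM from the low to the high tier in WT and at 2808, 1629 and 582 CPM in KO. The summed G2/M list stood at 15350, 10041 and 3372 CPM in WT and at 13796, 15696 and 3487 CPM in KO, so that the KO middle tier was still at the level of the low tier while the WT middle tier was below it. Mesenchyme markers were low in each of these tiers, 151, 170 and 154 CPM in WT and 290, 81.0 and 80.7 CPM in KO.

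The genes with the steepest decline were all of the dividing nucleus. Top2a, the topoisomerase of chromosome condensation, went from 637 CPM in the low to 74.9 CPM in the high WT tier and from 617 to 63.7 CPM in KO, log2 ratios of -3.09 and -3.28. Mki67, a marker of cycling cells, went from 1153 to 242 CPM in WT and from 1027 to 191 CPM in KO, with 1359 CPM in the KO middle tier. Smc2, Hist1h1b, Nusap1, Smc4, Cenpf, Birc5, Cdca8 and H2afx completed the 10, with log2 ratios between -4.15 and -2.15 over both libraries.

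Organelle clearance genes went the other way. Of 14 measured genes 13 were higher in the high tier of both libraries and 6 were 2-fold or more higher, with list medians of 1.08 in WT and 0.93 in KO against -0.40 and -0.11 for all genes. Their sum went from 5241 over 7147 to 10852 CPM in WT and from 6147 over 6464 to 10349 CPM in KO. Ube2o, the ubiquitin enzyme known to strip reticulocytes of ribosomal proteins, went from 42.3 to 264 CPM in WT and from 76.5 to 272 CPM in KO. Bnip3l, the receptor through which mitochondria are removed from red cells, went from 483 to 1287 CPM in WT and from 497 to 1360 CPM in KO. Mkrn1, a ubiquitin ligase, went from 201 to 564 CPM and from 333 to 767 CPM.

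The 10 genes with the steepest climb were Xpo7, Ube2o, Bpgm, Neat1, Mllt3, Rec114, Hsd3b6, Ypel5, Hscb and Gadd45a. Xpo7, a nuclear exporter known for its role in nuclear condensation of red cell precursors, was at 51.2, 114 and 436 CPM in the WT tiers and at 54.6, 120 and 319 CPM in the KO tiers, log2 ratios of 3.09 (2.70 to 3.48) and 2.54 (1.63 to 3.63). Bpgm, which makes the 2,3-bisphosphoglycerate that lowers the oxygen affinity of hemoglobin, was at 1042, 2027 and 4055 CPM in WT and at 1126, 1622 and 3963 CPM in KO. Hsd3b6 was at 455, 953 and 1635 CPM in WT and at 514, 748 and 1640 CPM in KO. For Bpgm and Hsd3b6 the 2 libraries thus had like levels at both ends of the order.

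Heme synthesis genes were less uniform. The list median was 0.35 in WT and 0.64 in KO, 9 of 14 measured genes were higher in both libraries, 2 of them by 2-fold or more, and 3 were lower in both, against 458 higher and 616 lower of all 1284 genes. Alas2 went from 1657 to 3619 CPM in WT and from 1333 to 2826 CPM in KO. Cpox, which makes protoporphyrinogen, went down from 703 to 406 CPM in WT and from 754 to 357 CPM in KO, and Tmem14c, a mitochondrial porphyrin transporter, from 1895 to 1225 and from 1421 to 750.02 CPM. Fech, the last enzyme of the pathway, climbed from 733 to 1106 CPM in WT and from 617 to 960.4 CPM in KO, log2 ratios of 0.59 (0.40 to 0.78) and 0.64 (0.34 to 0.95). Hemgn went down as well, at 1873, 1373 and 670.01 CPM in WT and at 1055, 1300.2 and 327 CPM in KO. Among membrane genes 14 of 24 were higher in both libraries and 6 were lower in both. Icam4, an adhesion molecule of erythroblastic islands, was lower, with 436 and 132 CPM in WT and 350 and 134 CPM in KO. Epb41, the protein 4.1 of the membrane skeleton, was higher, with 289 and 736 CPM in WT and 437 and 1058 CPM in KO.

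Of other regulators, Foxo3 went from 29.6 to 97.0 CPM in WT, a log2 ratio of 1.71 (0.96 to 2.41), and from 54.6 to 65.9 CPM in KO, 0.27 (-0.80 to 1.46), intervals that overlap. Klf1 had ratios of -0.22 (-0.60 to 0.14) and -0.10 (-0.60 to 0.43), and Tal1 -0.19 (-0.70 to 0.29) and 0.30 (-0.25 to 0.87). Of 15 measured genes of the list of chaperones, oxygen handling and redox enzymes 13 were higher in both libraries and 2 lower in both, again against 458 and 616 of 1284. Cat, the catalase, was at 108 and 256 CPM in WT and 87.4 and 240.1 CPM in KO. On a scale of all UMIs, in which globins take a growing part, every ratio of the high to the low tier is lower by 0.64 in WT and 0.85 in KO on the log2 scale, so that the medians of the heme, membrane and chaperone and redox lists become negative while that of organelle clearance stays above 0.

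**Figure D4:**
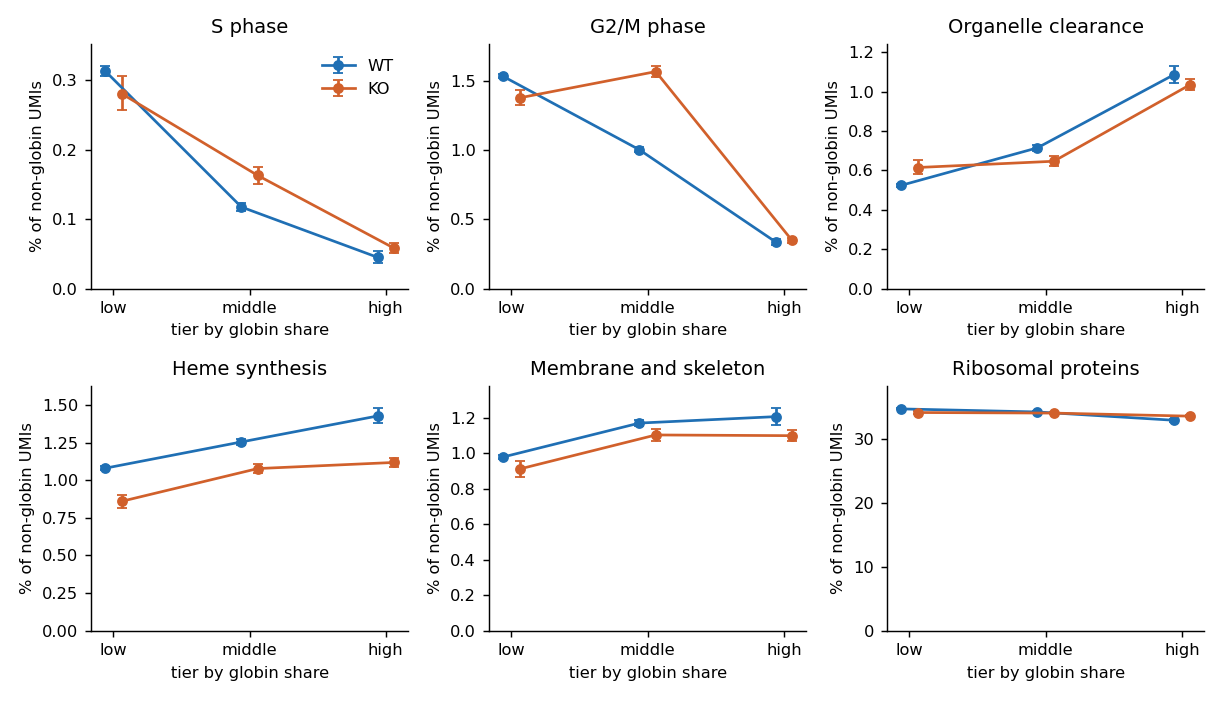
Sum of 6 gene lists (% of non-globin UMIs) in the low, middle and high tier of globin-rich members by globin share, for WT and KO, with exact 95% counting intervals as bars. S phase genes decline in both libraries, G2/M genes decline after the middle tier in KO, organelle clearance genes climb, and ribosomal proteins stay near a constant share.

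A different order, chosen after the data were seen, gave a part of the same picture. With each library split into its own 3 tiers by adult alpha share (31.0 and 35.4% in WT, 48.9 and 57.1% in KO), all 29 measured G2/M genes and all 6 S genes were lower in the high tier of both libraries, 4 of the 6 by 2-fold or more and 0 of the 29 by 2-fold or more. Of all 1467 genes compared in this order 714 were lower and 450 higher in both libraries, 0.75% were 2-fold or more lower and 0.954% were 2-fold or more higher. Xpo7, Neat1, Tmcc2, Slfn14, Ube2o, Ypel5, Bpgm and Mkrn1 were among the 10 genes with the steepest climb. With members ordered by Hbb-bh1 share, the S median of late over early cells was -0.44 in WT and -1.47 in KO, and the G2/M median was 0.24 in WT and -0.04 in KO. The summed S list went from 3369 CPM in WT globin-rich members with 5.5% or more Hbb-bh1 to 782 CPM in those under 1.5%, and the G2/M list stayed between 11831 and 15555 CPM. In the KO the S list went from 3468 to 761 CPM and the G2/M list from 14482 to 9689 CPM.

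The KO members were then set beside the WT members, 1 library against 1. Pdgfrb itself (the targeted gene) was at 47.3 CPM in the other WT barcodes and 7.30 CPM in the other KO barcodes, with 6420 and 1003 UMIs. In members it was at 9.01 CPM in WT (58 UMIs) and 3.55 CPM in KO (6 UMIs), near absent from red cells in both. The low level in KO matches the label in direction, and which transcript the remaining UMIs come from was not tested.

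Over all members, 122 of 8234 genes (1.48%) were 2-fold or more higher in KO and 361 (4.38%) were 2-fold or more lower. These counts moved with the scale and the mix of stages, to 29 higher and 750 lower per UMI of any gene, and to 484 higher and 274 lower with both libraries weighted to the same mix of globin tiers. The ends of this list were set by few barcodes. Of the genes highest in KO, Dppa5a had 118 of its 120 KO UMIs in 1 member, Lix1 73 of 122, Prrx1 99 of 221 and Rspo3 55 of 74, and Col12a1, Mgp, Flrt2 and Igsf3 are likewise stromal or developmental genes. Of the genes lowest in KO, Emcn, Cdh5, Plvap, Eng, Ecscr, Pecam1, Pcdh17 and Esam mark endothelium, and 130 of the 334 WT Emcn UMIs came from 1 member. Neat1 and AY036118 among the highest, and Hist1h2ap and Xist among the lowest, were also among the 10 most different genes of globin-rich members.

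Among globin-rich members 47 of 5281 genes (0.89%) were 2-fold or more higher in KO and 262 (4.96%) were 2-fold or more lower. Several of the largest differences were of like size in the other barcodes. Hist1h2ap, a histone gene, was at 1403 CPM in WT and 22.6 in KO, a log2 ratio of -5.96, and its ratio in the other barcodes was -5.17. Gm10076 had -4.25 and -4.37, Usp50 -3.54 and -3.64, and AY036118, a long noncoding gene, 2.68 and 2.24. Rps29, a ribosomal protein, had -1.61 and -1.44.

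Sex-linked genes differed as well. In WT members Xist, the X inactivation transcript, was at 525 CPM and had a UMI in 76.2% of cells, and Y-linked genes had 0 UMIs. In KO members Y-linked genes were at 126 CPM with a UMI in 41.6% of cells, and Xist had 43 UMIs in 4 cells. Sex and genotype therefore cannot be told apart for any difference between the libraries, whether given above or below. The 4 KO cells with Xist held 17, 12, 13 and 1 UMIs and 0 Y UMIs each, while the 7944 other KO barcodes held 16 Xist UMIs in all, at most 3 in a barcode.

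Genes that climbed with globin share were higher in globin-rich KO members, which held more globin. Bpgm was at 1512 CPM in WT and 2574 in KO, log2 0.77 (0.70 to 0.83), against 0.12 in the other barcodes. Fam46c, a poly(A) polymerase, was at 254 and 571 CPM, log2 1.17 (1.02 to 1.32), Mkrn1 at 257 and 561 CPM, log2 1.13 (0.98 to 1.27), Ube2o at 75.6 and 160 CPM, log2 1.08 (0.80 to 1.36), and Epb41 at 362 and 722 CPM, log2 0.99 (0.87 to 1.12). Neat1 was at 47.4 and 139 CPM, log2 1.56 (1.24 to 1.87). Tspo2, an erythroid cholesterol transporter, was at 46.9 and 113 CPM. Tcp11l2, Trib3, Fam174b, Tmcc2 and Lars2 were also 2-fold or more higher. Meg3, second by size with 2.59, had 100 of its 169 KO UMIs in 1 cell.

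Of the genes lower in KO, Hemgn was at 1653 CPM in WT and 826 in KO, an interval of the log2 ratio from -1.10 to -0.90, and its few UMIs in the other barcodes had a ratio of -1.04. Tmem14c was at 1836 and 1044 CPM, log2 -0.81 (-0.91 to -0.72), against 0.01 outside. Slc2a1, the glucose transporter GLUT1, was at 75.1 and 26.4 CPM, log2 -1.51 (-2.12 to -0.95), against 0.09 outside. Gata1 was at 111 and 65.0 CPM, log2 -0.77 (-1.15 to -0.40), Klf1 at 341 and 265 CPM, log2 -0.37 (-0.56 to -0.18), and Tal1, their partner, at 196 and 256 CPM, log2 0.39 (0.18 to 0.59). Selenbp1 had 73 UMIs in WT and 4 in KO, log2 -2.25 (-4.16 to -0.83). 6030468B19Rik, with 123 and 5 UMIs, had a ratio of -2.68 in members and 0.72 in the other barcodes, and Gemin6 had -2.43 and -0.39.

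By list, organelle clearance had a median of 0.51 (median bounds 0.14 and 0.77), with 19 of 23 genes higher in KO and 3 by 2-fold or more, and S genes had a median of -0.73 (-1.33 and -0.13), with 41 of 43 lower and 11 by 2-fold or more. G2/M genes had a median of -0.36, with 48 of 50 lower and 3 by 2-fold or more. All 5281 genes had a median of -0.10, with 2151 higher and 3130 lower in KO at any size and 0.89% and 4.96% by 2-fold or more. The lists of heme synthesis (-0.13), membrane (-0.03), erythroid transcription (0.02), iron (0.00) and ribosomal proteins (0.02) had bounds on both sides of 0. On a scale of all UMIs each ratio is lower by 0.43 in globin-rich members and by 0.34 in all members, which in all members turns the organelle clearance median from 0.20 to -0.14.

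The list differences moved with the stage of the cells compared, in windows chosen after the data were seen. In the middle tier by globin share (238 WT and 58 KO cells) the S median was 0.40 and the G2/M median 0.75, both above 0, and the organelle clearance median was -0.15. Bpgm was there at 2027 CPM in WT and 1622 in KO, and Hemgn at 1373 and 1300.2 CPM, a log2 ratio of -0.08 (-0.22 to 0.06). In cells with 2.5 to 4.5% Hbb-bh1 (316 WT and 69 KO cells) the S median was -0.24, the G2/M median -0.18 and the organelle clearance median 0.22, each with bounds on both sides of 0. In these cells Hemgn had a ratio of -0.64 (-0.80 to -0.49), Bpgm 0.53 (0.42 to 0.64), Fam46c 0.89 (0.65 to 1.13), Neat1 1.06 (0.53 to 1.57) and Alas2 0.00 (-0.11 to 0.11). The direction of the cell cycle and clearance lists thus depended on which globin measure set the stage. Fam46c was higher in KO in both of these windows (0.64 in the middle tier). In cells with 35 to 45% adult alpha (199 WT and 31 KO) its ratio was -0.01. The libraries were not alike within that window, with a median adult alpha share of 37.8% in WT and 42.3% in KO. The median Hbb-bh1 share there was 3.25% in WT and 4.15% in KO, and the median globin share 66.2% and 64.0%. Bpgm and Neat1 had ratios below 0 in that adult alpha window, as did Alas2 with -0.48 (-0.64 to -0.33). The KO cells with 17, 12 and 13 Xist UMIs lay in the same window, at 40.5, 38.3 and 44.9% adult alpha. Their part in its values was not tested.

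Regulators and heme genes that were lower in KO over all globin-rich members did not behave alike in these windows. Gata1 had a ratio of -0.17 (-0.74 to 0.36) in the middle tier, -0.11 (-0.66 to 0.40) in the Hbb-bh1 window and -0.70 (-1.55 to 0.07) in the adult alpha window. Klf1 had -0.22 (-0.52 to 0.08), 0.05 (-0.24 to 0.32) and -0.13 (-0.53 to 0.25). Tmem14c stayed lower in the middle tier, at -0.59 (-0.73 to -0.45), and in the Hbb-bh1 window, at -0.56 (-0.70 to -0.43), but not in the adult alpha window, at -0.01 (-0.18 to 0.15). Uros and Urod, enzymes of consecutive steps of heme synthesis, had intervals below 0 in all 3 windows, with ratios of -0.69, -0.51 and -0.82 for Uros and -0.44, -0.37 and -0.40 for Urod, as did Alad and the mitochondrial carrier Slc25a38. Cpox, at -0.18 (-0.31 to -0.06) over all globin-rich members, was higher in KO in the middle tier, 0.26 (0.07 to 0.44), and in the adult alpha window, 0.42 (0.18 to 0.65), and had 0.09 (-0.09 to 0.28) in the Hbb-bh1 window. Slc2a1 was lower in all 3 windows, with ratios of -1.89 (-2.99 to -0.96), -1.63 (-2.79 to -0.66) and -1.35 (-2.61 to -0.31). Tal1 was higher in the middle tier, 0.52 (0.19 to 0.84), and in the Hbb-bh1 window, 0.62 (0.30 to 0.94), and had 0.07 (-0.42 to 0.54) in the adult alpha window.

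Transcripts of the mitochondrial genome had the same direction in each of these choices. Their median was -0.44 in globin-rich members, -0.64 in the middle tier and in the adult alpha window and -0.49 in the Hbb-bh1 window, against 0.07 in the other barcodes. In globin-rich members 12 of 13 genes were lower in KO, 3 of them by 2-fold or more, against 3130 lower of all 5281 genes and 4.96% by 2-fold or more. In the Hbb-bh1 window all 12 measured genes were lower, against 1927 of all 3414. mt-Nd4l was at 354 and 115 CPM (-1.62, and -1.13 outside), mt-Nd3 at 696 and 256 CPM (-1.44, and -0.75 outside), mt-Atp6 at 4948 and 3656 CPM (-0.44, and 0.16 outside) and mt-Cytb at 2022 and 1296 CPM (-0.64, and -0.10 outside). mt-Nd6 was the exception, with 67 and 18 UMIs and a ratio of 0.04. Per cell, mitochondrial UMIs made up a median of 2.64% of the non-globin UMIs of WT members and 2.10% of KO members. The members were limited to under 10% mitochondrial UMIs of all UMIs, globins included.

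**Figure D5:**
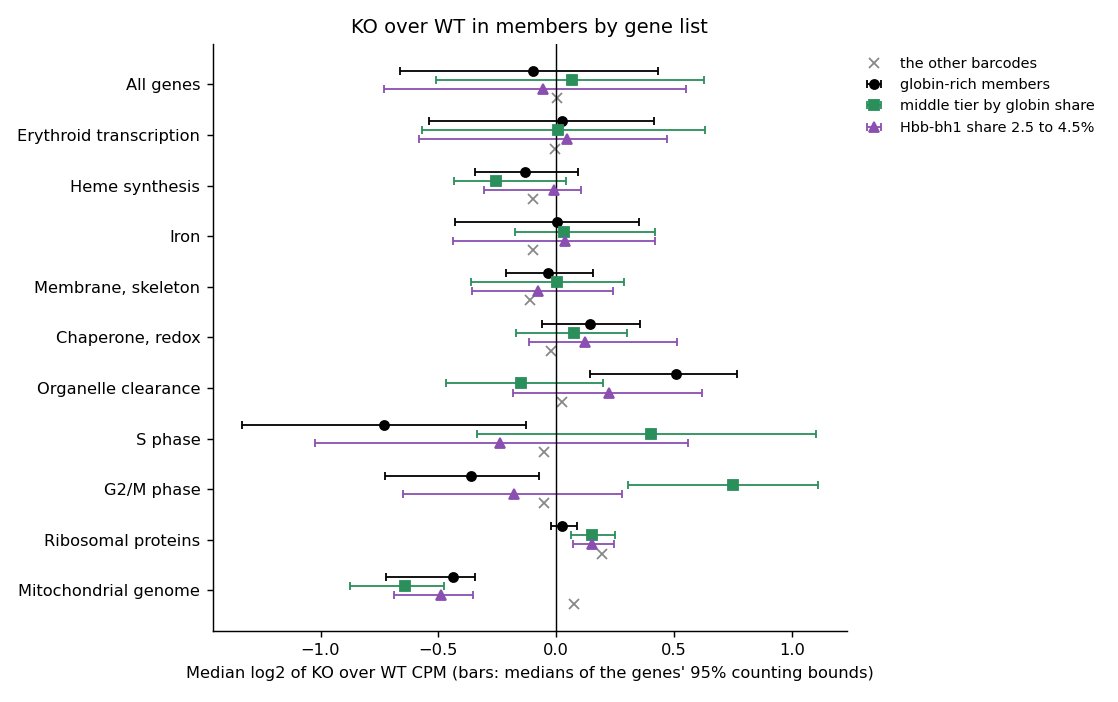
Median log2 of KO over WT CPM for all genes and 10 gene lists, in globin-rich members (circles), in the middle tier by globin share (squares), in cells with 2.5 to 4.5% Hbb-bh1 (triangles) and in the other barcodes (crosses), where bars are the medians of the genes' own 95% counting bounds. The S and G2/M medians lie below 0 for the circles and triangles and above 0 for the squares, and the mitochondrial genome lies below 0 in the 3 choices of members.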

How the data were processed

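The authors aligned the reads and counted UMIs with Cell Ranger 3.1.0 against mm10/GRCm38, and the counts deposited are the unfiltered matrices of 31053 genes by 6794880 barcodes for each of the 2 libraries, made with the 10x 3′ v3 kit. Barcodes with 2000 or more UMIs and under 10% mitochondrial UMIs were kept, and members were found by the globin limit of 10%. Members, gene lists and the rules for named genes were chosen with earlier results of these data known. UMIs were summed over cells and divided by non-globin UMIs, with 10 globin genes left out. Genes with 50 or more member UMIs were compared, 100 or more for named genes, which were the 10 with the largest change per comparison (some are not reported here), and a 2-fold ratio was called. Where a group had 0 UMIs, 3 counts were used as the bound. Intervals were exact Poisson or binomial at 95%. A mixed member held 3 or more UMIs, and 0.5% or more of its non-globin UMIs, of markers of another cell type. No replicates existed, so no p-value was computed. Gene positions were those of GENCODE on GRCm38, found for 30934 gene IDs, and promoters came from RefSeq. The steps were tested on simulated data. Python 3.11.15, numpy 2.4.6, scipy 1.17.1, pandas 2.3.3 and matplotlib 3.10.9 were used. The alternatives tried are given in the closing section.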

Additional observations from a re-analysis of the deposited data

Results flagged for a closer look

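Globin-rich barcodes also occurred below the limit of 2000 UMIs, in data that no comparison above used. In WT 21 of 4874 barcodes with 500 to 1000 UMIs held 10% or more globins (0.431%, where a count of 0 would allow up to 0.0616%), and 6 of the 21 carried adult beta globin. In WT 16 of 2283 barcodes with 1000 to 2000 UMIs did so (0.701%, against 0.131%), and 6 of the 16 carried adult beta globin. In KO 11 of 5102 barcodes with 500 to 1000 UMIs did so (0.216%, against 0.0588%), and 1 of the 11 carried adult beta globin. In KO 3 of 2165 barcodes with 1000 to 2000 UMIs did so, which equals the limit of 0.139%. Among members adult-beta cells were 10 of 761 in WT and 2 of 221 in KO.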

How the results depend on the processing

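No paired analysis was possible because each genotype had 1 library and the result comes from no test. Over all planned and added settings, 168 of 223 summary values stayed within the interval of the main value or, for counts, near it. Of the others 49 moved and 6 turned. Of 654 values of single genes 418 stayed, 200 moved and 36 turned. A value counted as turned only if its sign changed and both bounds of the main interval had the same sign. Where these bounds differed in sign, a change of sign is counted as stayed or moved. The cause of these changes was not tested except where the setting itself fixes it (fewer cells, fewer genes or another scale). The settings with 50% or more globins and no adult-beta members, the windows of adult alpha, Hbb-bh1 and middle globin share, and the tiers by adult alpha within a library were chosen after the data were seen.

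The log2 ratio of the share of members, -1.77, was -1.45 with under 5% mitochondrial UMIs. The 122 genes 2-fold or more higher in KO became 60 at a globin limit of 20%, 48 at 50%, 47 at 50% without adult-beta members, 29 per UMI of any gene, 484 with both libraries weighted to the same mix of globin tiers and 518 with genes of 10 or more UMIs. The 361 lower genes became 214 under 5% mitochondrial UMIs, 213 without mixed members, 750 per UMI of any gene, 761 with a mean of per-cell CPM and 1006 with genes of 10 or more UMIs.

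Of the KO over WT medians of all members, per UMI of any gene heme synthesis was -0.47, membrane -0.45, G2/M -0.39 and organelle clearance -0.14, and Alas2 was -0.25. With the same mix of globin tiers heme synthesis was -0.38, S 0.17, G2/M 0.31, organelle clearance -0.038, Bpgm -0.16, Alas2 -0.43 and Bnip3l -0.15. At 35 to 45% adult alpha heme synthesis was -0.44, S 0.86, G2/M 0.48, organelle clearance -0.27, Neat1 -0.12, Bpgm -0.62, Fam46c -0.0053, Alas2 -0.48, Bnip3l -0.61 and Fth1 -0.19. In the middle tier S was 0.40, G2/M 0.75, organelle clearance -0.15, Bpgm -0.32, Alas2 -0.36 and Bnip3l -0.39. The G2/M median was -0.34 at a globin limit of 20%, -0.33 at 50%, -0.36 at 50% without adult-beta members and -0.48 with a mean of per-cell CPM. At a limit of 20% Lix1 was -0.40, Prrx1 -0.31 and Rspo3 -0.95, and Rspo3 was -0.39 at 50%. With a mean of per-cell CPM Rspo3 was -0.074 and Esam 1.36. Alas2 was -0.037 under 5% mitochondrial UMIs, and at 2.5 to 4.5% Hbb-bh1 Alas2 was -0.00060 and Klf1 0.045.

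Of the ratios of high to low tier of all members, by Hbb-bh1 share in WT heme synthesis was 0.16, membrane 0.21, S -0.44, G2/M 0.24 and organelle clearance 0.44, and in KO heme synthesis was 0.41, membrane 0.39 and G2/M -0.044. The stromal genes turned in this order, in WT Gpc3 (0.63), Col1a1 (0.42), Phldb2 (0.15), Ptn (0.83), Map1b (0.18) and Meis2 (0.52), and in KO Sparc (1.21), Gpc3 (1.32), Col1a1 (0.87), P4hb (0.022), Ptn (0.98), Map1b (0.56) and Dlk1 (0.24). With a mean of per-cell CPM heme synthesis was 0.58 in WT and 1.04 in KO, membrane 0.25 and 0.34, and organelle clearance 0.71 in KO. With 50% or more globins and no adult-beta members heme synthesis was 0.35 and 0.64, and membrane 0.27 and 0.16. By adult alpha share heme synthesis was 0.089 in WT and 0.16 in KO, membrane 0.11 and -0.051, G2/M -0.55 in WT, organelle clearance 0.48 in WT and Pus10 -0.48 in KO. Without mixed members heme synthesis was 1.41 in KO. Counting depth limits the KO most, with 1691257 non-globin UMIs of members against 6439567 in WT.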
